A study of Homo sapiens with 14 samples.

Results

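The p53 target genes described here are MDM2, CDKN1A, BAX, BBC3, GDF15, SESN1, FAS, TP53I3 and RRM2B. These 9 genes were chosen by name, with earlier results of these data known. They come from the 21574 rows of the deposited RPKM table (reads scaled to transcript length and library size). Each has 1 row, and the rows of BBC3 and GDF15 also list a microRNA, MIR3191 and MIR3189. The study compared cells given a scrambled siRNA (control) with cells given an siRNA against ADAR1 (KD), each at 20 µM for 48 h, and all 14 samples are labelled as HepG2, an established hepatocellular carcinoma line. PARS-seq, in which RNA is cut in vitro with S1 nuclease at unpaired bases or with RNase V1 at paired bases, has 8 libraries, with 2 replicates per enzyme and condition. Ribo-seq, which sequences the fragments protected by ribosomes, has 2 libraries per condition, and RNA-seq has 1. In the table, the PARS-seq RPKM of a replicate is the authors' mean over its S1 and V1 libraries, so that levels are not separated by enzyme. The table comes from RNA of a transfected population, and fewer expressing cells and less RNA per cell cannot be told apart.

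The transcription factor p53 is held at a low level by MDM2, a ubiquitin ligase that is itself a p53 target, and accumulates when cells are stressed. It then activates genes that stop the cell cycle, repair DNA, limit oxidative damage or start cell death. CDKN1A encodes p21, an inhibitor of cyclin-dependent kinases. BAX and BBC3 (PUMA) act at the mitochondrial step of apoptosis, and FAS is a death receptor at the cell surface. SESN1 is a stress-induced sestrin, TP53I3 a quinone oxidoreductase and RRM2B a subunit of ribonucleotide reductase. GDF15 is a secreted stress cytokine.

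The genes lie on several chromosomes in GENCODE coordinates of GRCh37. CDKN1A and SESN1 are at chr6:36644237-36655114 and chr6:109305512-109416049, MDM2 is at chr12:69201957-69239324, FAS at chr10:90750414-90775542 and TP53I3 at chr2:24300303-24308731. BAX, BBC3 and GDF15 are on chromosome 19, at chr19:49458072-49465055, chr19:47724079-47736023 and chr19:18485541-18499986. RefSeq (GRCh38.p14) gives 15 windows from 250 bases before to 50 bases after a transcription start for 8 of the genes. The consensus p53 decamer, only a part of a full p53 site, was searched by its name's standard letters with no mismatch and is identical on both strands. It occurs in 2 of the 15 windows, 1 each for SESN1 and FAS, against 6.63% of all 35116 windows. Both are shown, with the decamer in capitals, beside the window of CDKN1A, the gene with the largest change among the 9, which holds no match. They are chr6:109008939-109009238 on the minus strand (SESN1), chr10:88991181-88991480 on the plus strand (FAS) and chr6:36678464-36678763 on the plus strand (CDKN1A). A match describes the letters only, sequence outside these windows was not searched, and binding of p53 was not measured.
SESN1: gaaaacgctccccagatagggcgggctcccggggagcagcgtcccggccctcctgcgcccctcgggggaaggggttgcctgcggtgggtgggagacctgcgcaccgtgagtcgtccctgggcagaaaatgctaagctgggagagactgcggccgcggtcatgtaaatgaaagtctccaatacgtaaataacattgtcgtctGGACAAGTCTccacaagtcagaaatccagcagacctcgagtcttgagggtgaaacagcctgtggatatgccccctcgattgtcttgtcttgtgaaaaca
FAS: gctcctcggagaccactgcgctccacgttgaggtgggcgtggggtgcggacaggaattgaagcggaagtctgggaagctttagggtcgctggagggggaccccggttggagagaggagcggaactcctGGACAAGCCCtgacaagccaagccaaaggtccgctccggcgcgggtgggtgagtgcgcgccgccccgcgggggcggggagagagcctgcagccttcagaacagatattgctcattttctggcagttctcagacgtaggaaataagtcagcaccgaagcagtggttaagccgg
CDKN1A: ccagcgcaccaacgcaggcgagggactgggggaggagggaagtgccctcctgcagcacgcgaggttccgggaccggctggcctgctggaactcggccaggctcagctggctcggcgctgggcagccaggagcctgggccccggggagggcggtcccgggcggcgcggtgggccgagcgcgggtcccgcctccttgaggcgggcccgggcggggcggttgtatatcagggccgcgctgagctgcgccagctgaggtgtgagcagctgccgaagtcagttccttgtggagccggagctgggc

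Several properties of the libraries bear on the values. The level of ADAR, the target of the siRNA, was 40.7 and 46.8 RPKM in the PARS-seq controls and 15.1 in both KD replicates, a change of −1.47 ± 0.17 (SE) on the log2(RPKM + 1) scale (limma, adjusted p = 0.00200). In RNA-seq, KD was 0.280 of control. In Ribo-seq it was 0.200 of control in replicate 1 but 0.794 in replicate 2, so that replicate 2 had the weaker knockdown by this measure. The 10 hepatocyte and HepG2 markers examined, ALB, AFP and APOA1 among them, were all below 1 RPKM in every column, and their summed level was between 0 and 0.928 RPKM. The data therefore do not show the defining markers of the labelled line. Of the 5 fibroblast markers, 2 to 4 reached 1 RPKM in each column, with COL3A1 at 96.2 and 71.8 RPKM in the PARS-seq controls. COL1A2, of the same list, was at no more than 0.123 RPKM in any column, and DCN at no more than 1.57 RPKM in PARS-seq. The summed level of the 5 was lower after KD in PARS-seq, at 118.8 and 103.03 RPKM in control against 87.7 and 68.2. In RNA-seq it was 79.3 against 54.4 RPKM. Neither of the 2 fibroblast markers tested in PARS-seq was called. The Ribo-seq replicates also stood apart in these markers, with a sum of 150.1 and 110.8 RPKM in replicate 1 (control and KD) and of 46.1 and 47.9 in replicate 2. LUM was at 112.5 and 80.4 RPKM in replicate 1, and at 0.284 and 0 in replicate 2. Of the 4 blood and immune markers only CD68 reached 1 RPKM, and none of the 3 endothelial markers did. CD68 was called lower after KD in PARS-seq, at −1.09 ± 0.15 (adjusted p = 0.00390), with ratios of 0.685 in RNA-seq and 0.436 and 1.61 in Ribo-seq. Whether these differences play a part in the results was not tested.

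In PARS-seq, 5 of the 9 genes fell by the test across all genes, CDKN1A, MDM2, FAS, SESN1 and TP53I3, and none rose. Of all 11153 genes tested, 15.5% were called in either direction and 7.43% were called lower. The median change of the 9 genes was −0.84 on the log2(RPKM + 1) scale, beside 0.04 over all genes tested. Because the 9 were chosen with earlier results of these data known, the contrast with all genes is descriptive. For 8 of the 9, both KD values lay below both control values, which was the case for 27.1% of all genes tested. Each group has 2 values, which the study describes as biological replicates. The p-values cover the spread between such replicates only, and limma moves each gene's estimate of it towards that of other genes of similar level.

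CDKN1A changed most. Its level was 424.3 and 447.0 RPKM in control and 53.4 and 59.6 after KD, 0.126 and 0.133 of control. The groups were far apart, and the change was −2.93 ± 0.18 (SE) on the log2(RPKM + 1) scale (limma, adjusted p = 0.000153). MDM2, the regulator of p53, was at 36.4 and 37.1 RPKM in control and at 16.2 and 12.9 after KD. Its groups did not overlap and it fell by 1.28 ± 0.17 (adjusted p = 0.00382).

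FAS, the death receptor, was at 10.7 and 7.99 RPKM in control and at 3.76 and 3.12 after KD. It fell by 1.21 ± 0.18 (limma, adjusted p = 0.00500), with no overlap. SESN1 was at 10.7 and 9.53 RPKM in control and at 4.53 and 4.26 after KD, and it fell by 1.04 ± 0.15 (adjusted p = 0.00468). These were the members with the lowest levels among those called. TP53I3, the oxidoreductase, was at 55.3 and 54.8 RPKM in control and at 34.0 and 27.0 after KD. It fell by 0.84 ± 0.18 (adjusted p = 0.0203). Without KD replicate 2 the change of TP53I3 was −0.68 and was no longer called, in a fit with 1 KD library whose spread comes largely from other genes. With no filter on low values neither FAS nor TP53I3 was called (adjusted p = 0.0663 and 0.0741), and with 5 RPKM added in place of 1 the changes of FAS and SESN1 were −0.76 and −0.69, both still called.

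The other members did not pass the test. BAX was at 90.02 and 123.4 RPKM in control and at 53.1 and 85.6 after KD, a difference of −0.64 ± 0.26 (limma, adjusted p = 0.136). GDF15 was at 299.97 and 295.03 RPKM in control and at 159.8 and 227.9 after KD, a difference of −0.64 ± 0.22 (adjusted p = 0.0831). BBC3, a low gene, was at 4.75 and 6.08 RPKM in control and at 2.98 and 3.86 after KD, a difference of −0.54 ± 0.17 (adjusted p = 0.0703). The groups of these 3 genes did not overlap. Whether these 3 were called depended on the library left out. Such fits have 1 library in a group, and their spread comes largely from other genes. Without KD replicate 1 the differences were smaller, at −0.30 for BAX, −0.38 for GDF15 and −0.39 for BBC3. Over all settings they lay between −0.97 and −0.30 for BAX, −0.89 and −0.38 for GDF15, and −0.69 and −0.31 for BBC3. RRM2B was at 5.04 and 3.71 RPKM in control and at 4.31 and 3.44 after KD. Its groups overlapped and the difference was −0.14 ± 0.18 (adjusted p = 0.631).

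**Figure D1:**
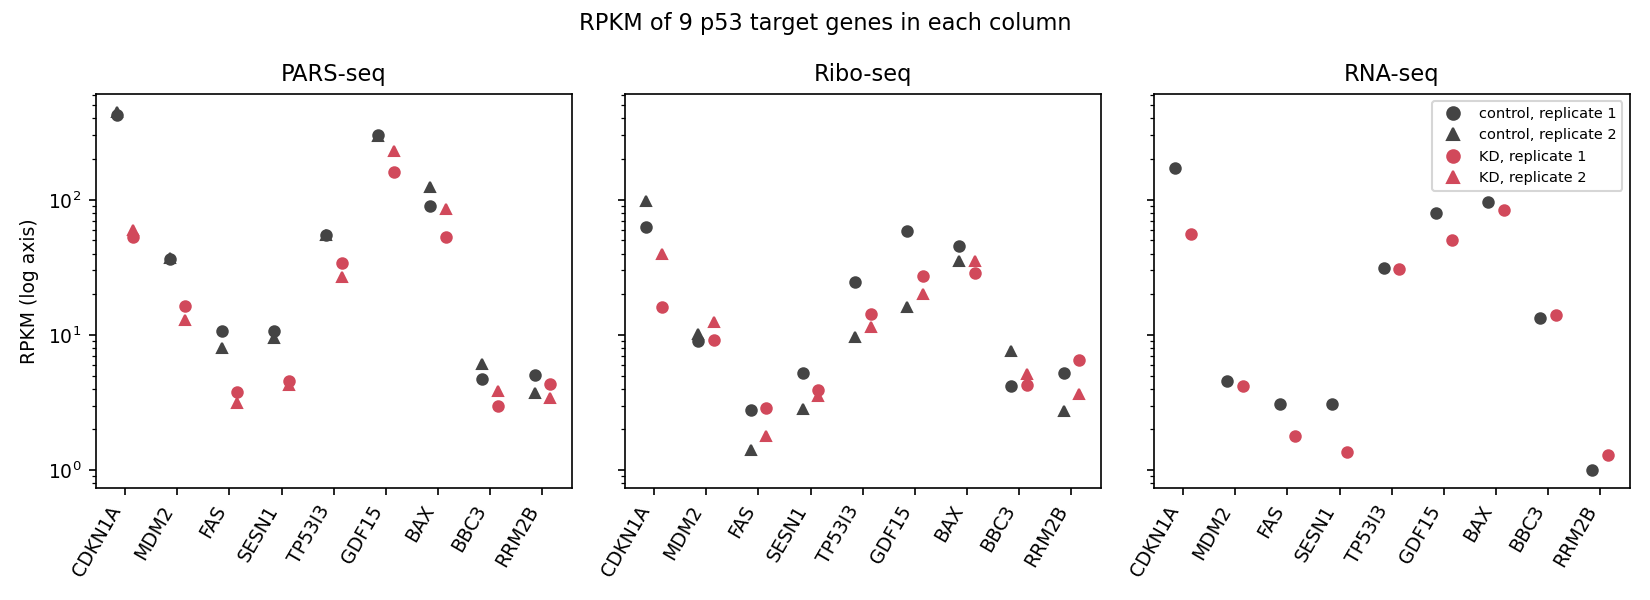
RPKM (log axis) of the 9 genes in PARS-seq, Ribo-seq and RNA-seq, 1 point per column, with control in grey, KD in red, replicate 1 as circles and replicate 2 as triangles. In PARS-seq the KD points of CDKN1A, at 53.4 and 59.6 RPKM, lie furthest below their controls, while those of RRM2B overlap them.

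**Figure D2:**
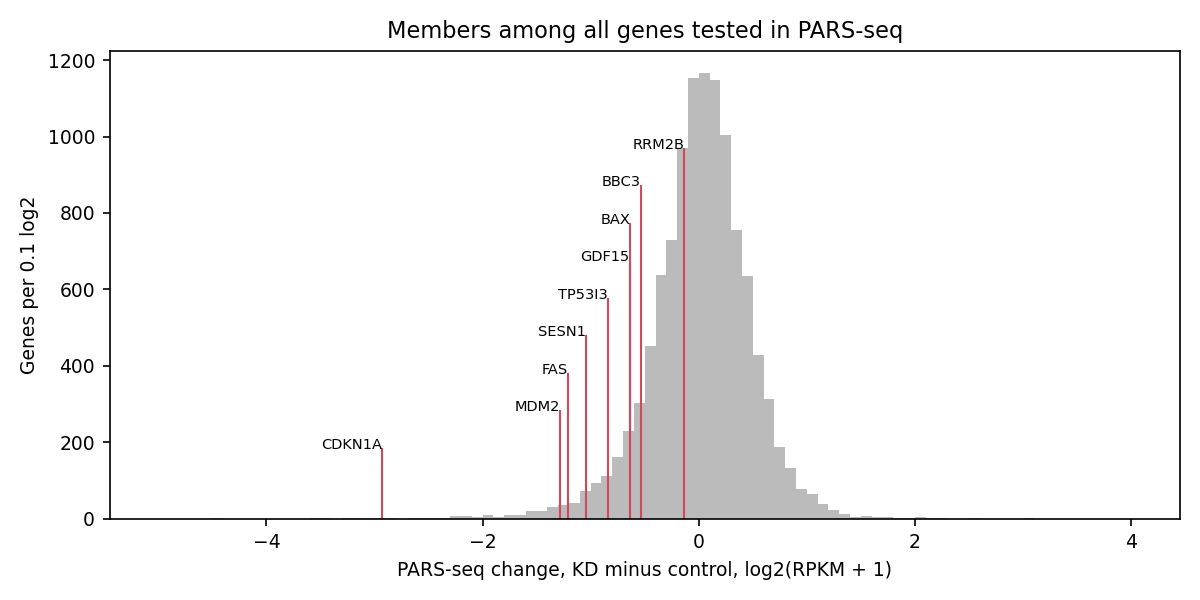
Number of genes by PARS-seq change, KD minus control on the log2(RPKM + 1) scale, for the 11153 genes tested, with the 9 members as red lines (line height has no meaning). CDKN1A is at −2.93 and all 9 members lie below the median of all genes, 0.04.

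In RNA-seq there is 1 library per condition and hence no test. Of the 9 genes, 3 were lower past 1.5-fold on the log2(RPKM + 1) scale, CDKN1A, SESN1 and GDF15, and none was higher past it. Of the 10946 genes with a mean of at least 1 RPKM, 4.66% were lower and 4.47% were higher past this fold. CDKN1A was at 171.6 RPKM in control against 55.6 after KD, a ratio of 0.324 with a 95% exact binomial interval of 0.313 to 0.335 from 16751 and 4024 reads. SESN1 was at 3.09 and 1.36 RPKM, a ratio of 0.440 (0.363 to 0.530), from 457 and 149 reads. GDF15 was at 80.2 and 49.95 RPKM, a ratio of 0.623 (0.590 to 0.657). The intervals cover counting error only, since there is no replicate.

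FAS had a ratio of 0.583 (0.501 to 0.677), which is past 1.5-fold in RPKM but not with 1 RPKM added. BAX had a ratio of 0.876 (0.838 to 0.916) and MDM2 of 0.913 (0.839 to 0.993). TP53I3, at 31.4 and 30.6 RPKM, had a ratio of 0.974 (0.917 to 1.03), and BBC3, at 13.29 and 13.99 RPKM, of 1.05 (0.965 to 1.15), and both intervals include 1. RRM2B, the lowest of the 9 at 1.01 and 1.29 RPKM, had a ratio of 1.28 (1.05 to 1.56). MDM2 thus had a ratio of 0.447 and 0.349 in PARS-seq and of 0.913 in RNA-seq, and TP53I3 of 0.615 and 0.492 beside 0.974. The difference between these assays was not tested.

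In Ribo-seq none of the 9 genes passed the test, and neither did any other gene (limma, 0.0% of 10882 genes called, 43 genes at an unadjusted p under 0.05, no member among them). The fit on whole reads also called none. ADAR itself was not called (adjusted p = 1.00), and the SE of the members was between 0.41 and 0.72 on the log2(RPKM + 1) scale, so that changes of the size seen in PARS-seq were not detectable in this test. CDKN1A was at 62.4 and 97.3 RPKM in control and at 16.0 and 39.7 after KD, with both KD values below both controls. Its ratio was 0.257 in replicate 1 (95% exact binomial interval 0.185 to 0.353) and 0.408 in replicate 2 (0.351 to 0.474), and the fitted difference was −1.58 ± 0.63. It was −0.96 without KD replicate 1 and −2.21 without KD replicate 2, and neither was called. Only CDKN1A and BAX had both KD values below both controls, a pattern of 7.12% of all genes tested, and for BAX the closest pair was 35.5 and 35.4 RPKM.

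The replicates differed in direction for several genes. GDF15 was at 58.4 RPKM in control and 27.4 after KD in replicate 1, a ratio of 0.469 (0.320 to 0.683), and at 16.1 and 19.9 in replicate 2, a ratio of 1.24 (0.863 to 1.78). TP53I3 had a ratio of 0.581 (0.375 to 0.896) in replicate 1 and of 1.19 (0.818 to 1.73) in replicate 2. SESN1 was likewise below 1 in replicate 1, at 0.746, and above 1 in replicate 2, at 1.26, with intervals that include 1. BAX had a ratio of 0.634 (0.426 to 0.942) and 0.999 (0.772 to 1.29).

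BBC3 had a ratio of 1.02 (0.405 to 2.71), from only 9 and 13 reads, and of 0.678 (0.411 to 1.09). MDM2 was at 9.001 and 10.2 RPKM in control and at 9.18 and 12.4 after KD, with ratios of 1.02 (0.738 to 1.42) and 1.22 (1.01 to 1.46). FAS, with 13 to 22 reads per library, had ratios of 1.04 and 1.26, and RRM2B of 1.26 and 1.35, all with intervals that include 1. These low counts limit what can be said of FAS, SESN1, BBC3 and RRM2B in Ribo-seq.

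**Figure D3:**
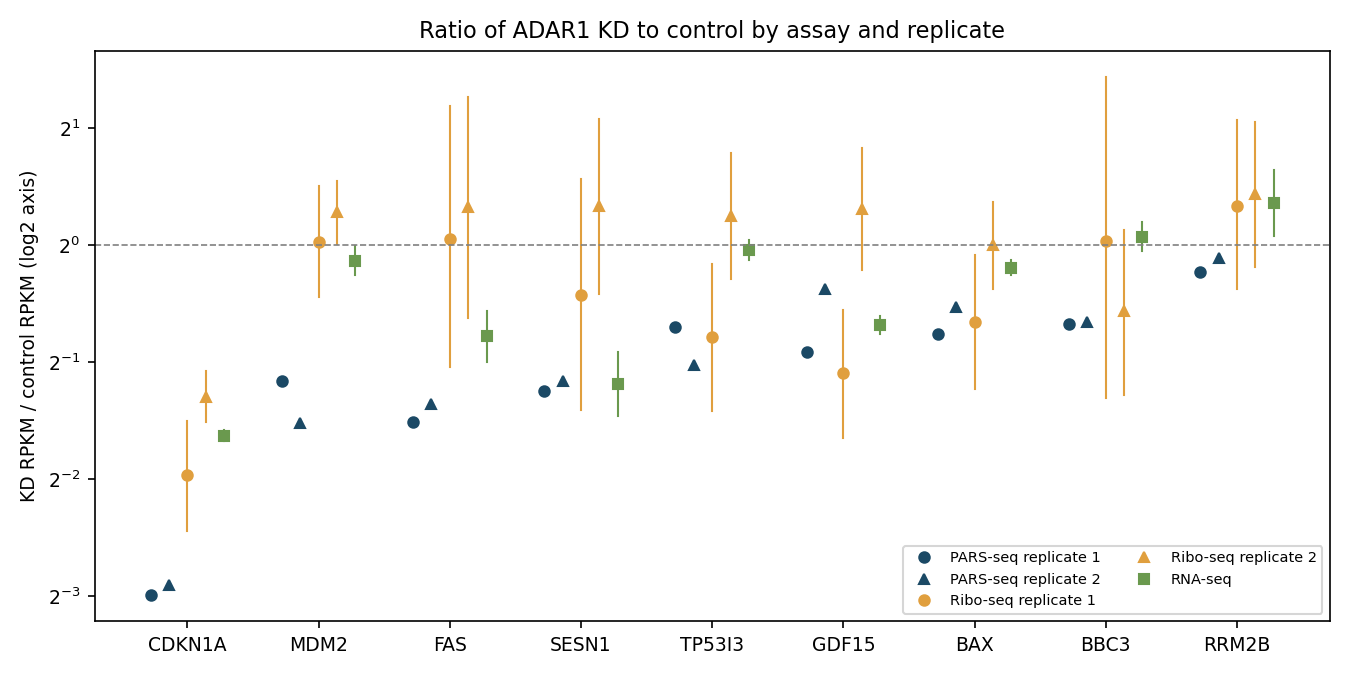
Ratio of KD to control RPKM (log2 axis) of the 9 genes, for each PARS-seq and Ribo-seq replicate and for RNA-seq, with 95% exact binomial intervals of counting error as lines for Ribo-seq and RNA-seq. CDKN1A lies below 1 in all 5 ratios, from 0.126 to 0.408, while GDF15, SESN1 and TP53I3 lie on both sides of 1 in Ribo-seq.

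The difference between the PARS-seq and the Ribo-seq change was tested for 10339 genes and none was called (limma, 0.0%, 163 genes at an unadjusted p under 0.05). Among the members, MDM2 had a difference of −1.42 ± 0.39 (unadjusted p = 0.00745), FAS of −1.33 ± 0.46 (0.0232) and SESN1 of −0.998 ± 0.41 (0.0464), all with an adjusted p of 1.00. The ratio of Ribo-seq to RNA-seq change, a measure of translation efficiency, was past 1.5-fold in the mean of the replicates for 2 members, SESN1 at 0.75 and FAS at 0.66 on the log2 scale, beside 16.3% of 10142 genes. Both rest on 13 to 34 reads per Ribo-seq library, and with 5 RPKM added in place of 1 they were 0.31 and 0.30, so that no member was past 1.5-fold, nor was any among genes with a mean of at least 5 RPKM. The median over the members was −0.04 in replicate 1 and 0.34 in replicate 2, and over all genes 0.01 and 0.18. There is 1 RNA-seq library per condition, so that this ratio has no test.

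Per-base read starts name a transcript for 2 of the 9 genes, CDKN1A (2122 bases) and TP53I3 (2042 bases). These pairs of transcript and symbol come from a list that the study selected for a structural change on these libraries, so that the 2 genes are not a sample of the 9. CDKN1A had 61906 and 71593 S1 read starts in control and 7554 and 7341 after KD. With V1 it had 73824 and 66071 in control and 12016 and 8537 after KD. The KD libraries were far below the controls with both enzymes. The change was −3.12 ± 0.25 with S1 (limma on log2 read starts scaled to the library total, adjusted p = 1.49e-31) and −3.28 ± 0.34 with V1 (adjusted p = 3.65e-19).

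TP53I3 had 5152 and 4449 S1 read starts in control and 2859 and 1673 after KD, and 9948 and 9618 V1 read starts in control and 8161 and 4787 after KD. It fell by 1.09 ± 0.31 with S1 (limma, adjusted p = 0.00464) and by 1.14 ± 0.33 with V1 (adjusted p = 0.00792). Of all transcripts, 18.6% were called lower with S1 and 7.9% with V1. A single transcript took between 26.0 and 54.7% of the read starts of a library, and the median change of all transcripts was −0.36 with S1 and −0.14 with V1. Relative to these medians, CDKN1A changed by −2.77 and −3.14, and TP53I3 by −0.74 and −1.01. With that transcript left out of the totals, the adjusted p-values were 1.41e-09 and 7.27e-05 for CDKN1A and 0.0204 and 0.0183 for TP53I3, and the calls were 308 higher and 455 lower in place of 70 and 878 with S1, and 890 and 893 in place of 346 and 1334 with V1. In the scaling by full totals the fit gave every transcript of a given level the same spread. The p-values of that scaling therefore do not use the spread between the replicates of CDKN1A or of TP53I3. In fits with 1 library in a group, the call of TP53I3 was lost without either KD replicate with S1 (changes of −1.21 and −0.97). With V1 it was lost without either control replicate (−1.10 and −1.19).

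The V1 and S1 changes did not differ detectably for either gene. The V1 change minus the S1 change was −0.16 ± 0.40 for CDKN1A and −0.05 ± 0.42 for TP53I3, both with an adjusted p of 1.00 (limma, 0.0% of 4721 transcripts called, 15 at an unadjusted p under 0.05). For TP53I3 the scaled V1 to S1 ratio, on the log2 scale, was 0.99 and 1.203 in control and 0.89 and 1.196 after KD, and that of CDKN1A was 0.29 and −0.02 in control and 0.04 and −0.10 after KD. Along CDKN1A, the bin of bases 1801 to 1900 held 34.6 and 37.7% of the S1 read starts in control and 28.0 and 33.3% after KD. Both neighbouring bins held a larger share after KD, with 16.4 and 20.7% against 23.3 and 25.1% in bases 1701 to 1800, and 10.6 and 17.5% against 18.6 and 20.95% in bases 1901 to 2000. These shares were not tested. Along TP53I3, the bin of bases 1001 to 1100 held 52.98 and 60.6% of the V1 read starts in control and 55.3 and 59.3% after KD. Spearman's correlation over the bases of CDKN1A was 0.759 between the S1 control replicates, and 0.643 and 0.638 between control and KD of the same number. The KD replicates, with fewer read starts, correlated at 0.634. These correlations are over bases of the same transcript and carry no test.

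**Figure D4:**
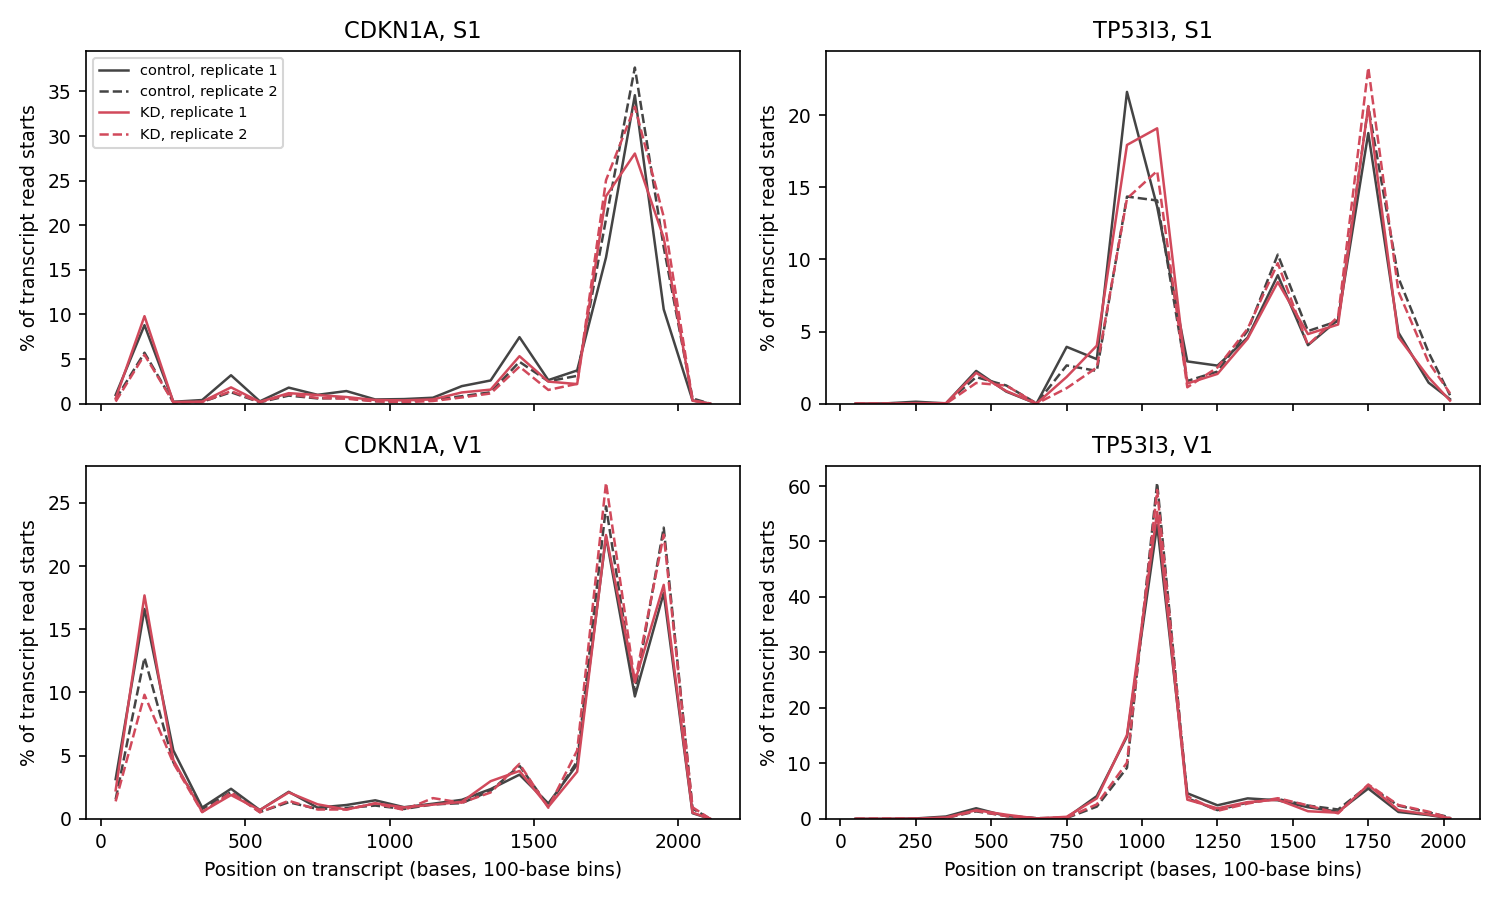
Share of the transcript's read starts (%) in bins of 100 bases along CDKN1A and TP53I3 for S1 and V1, with control in grey, KD in red, replicate 1 as solid and replicate 2 as dashed lines. The bin of bases 1001 to 1100 of TP53I3 holds between 52.98 and 60.6% of the V1 read starts in all 4 libraries.

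Other genes of the pathway are read against all genes tested in PARS-seq, of which 8.06% rose and 7.43% fell, with a median change of 0.04. Of the 17 regulators of p53 tested in PARS-seq, 1 rose and none fell, with a median of 0.12, a count near that background. The gene that rose was DYRK2, a kinase that acts on p53, at 1.13 and 1.03 RPKM in control and 2.27 and 2.18 after KD.

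Of 40 other textbook p53 targets tested in PARS-seq, 9 fell and 1 rose, with a median of −0.25. BTG2, FDXR and DRAM1 are given singly because their ratios lay on the same side of 1 in every assay, so that the likeness between assays was fixed by this choice. BTG2, an antiproliferative gene, fell by 1.92 ± 0.15 (limma, adjusted p = 0.000356), with an RNA-seq ratio of 0.411 and Ribo-seq ratios of 0.405 and 0.438. FDXR, a mitochondrial reductase, fell by 0.98 ± 0.17 (adjusted p = 0.00979), with ratios of 0.680 in RNA-seq and 0.561 and 0.880 in Ribo-seq. DRAM1, a regulator of autophagy, rose by 1.14 ± 0.15 (adjusted p = 0.00343), with ratios of 2.60 in RNA-seq and 1.82 and 1.64 in Ribo-seq. The other 7 that fell, ANKRA2, CCNG1, PERP, PHLDA3, RPS27L, SFN and TOB1, had PARS-seq changes between −1.07 and −0.58 but did not share 1 direction across assays. Their RNA-seq ratios lay between 0.730 and 1.32, with PHLDA3 the only one above 1. Their Ribo-seq ratios lay between 0.315 and 0.981 in replicate 1, and between 0.703 and 2.42 in replicate 2, where 6 of the 7 were above 1.

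Of the 30 cell cycle genes known to be repressed through CDKN1A and the DREAM complex, 2 rose and none fell in PARS-seq, with a median of 0.31. A count of 2 in 30 is near the 8.06% of all genes that rose, and the median of the list was 0.27 in Ribo-seq (0.08 over all genes tested) and −0.01 in RNA-seq (also −0.01 over all genes). Both were mitotic genes, CENPF at 0.80 ± 0.20 (limma, adjusted p = 0.0309) and NDC80 at 0.80 ± 0.18 (adjusted p = 0.0226), and their RNA-seq ratios were 1.05 and 1.03. Of the 14 CDK inhibitors and partners tested, 2 rose and 3 fell. CCNE1, a cyclin, rose by 0.62 ± 0.15 and CDKN2D, an inhibitor of cyclin-dependent kinases, by 0.98 ± 0.20. CCND3, also a cyclin, fell by 1.12 ± 0.16, CDKN1C by 0.83 ± 0.21 and CDK6 by 0.74 ± 0.18. In the BCL2 family, 1 of 12 rose, BOK, by 1.01 ± 0.14 (limma, adjusted p = 0.00455), and 1 fell, BAD, by 0.67 ± 0.15 (adjusted p = 0.0238). In the list of the death receptor pathway 1 of 9 fell, CASP9, by 1.12 ± 0.19 (adjusted p = 0.00887), with an RNA-seq ratio of 0.589. CASP9 is the initiator caspase of the mitochondrial pathway. The initiators next to the death receptors, CASP8 and CASP10, had differences of −0.14 and −0.37 and were not called (adjusted p = 0.599 and 0.0857). Among 6 relatives of the enzymes and sestrins, 1 rose and 1 fell. NQO1, a quinone reductase, fell by 1.43 ± 0.22 (adjusted p = 0.00615), with ratios of 0.438 in RNA-seq and 0.575 and 1.19 in Ribo-seq. RRM2, the paralogue of RRM2B and another small subunit of ribonucleotide reductase, rose by 0.82 ± 0.17 (adjusted p = 0.0168). In the lists of CDK inhibitors, the BCL2 family, the death receptor pathway and the relatives, at most 3 genes were called in a direction, too few to read as a result about a list beside the shares over all genes.

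The genes closest to each member were sought over 5 log2 ratios, with 2 from PARS-seq, 2 from Ribo-seq and 1 from RNA-seq, among 9805 genes with a mean of at least 1 RPKM in each assay. For CDKN1A they were FBXO2, at a Euclidean distance of 0.37, ALDH3A1 at 0.99 and HSPB7 at 1.09. For MDM2 the closest was NUDT6 at 0.44, for FAS IFI27L2 at 0.30, for SESN1 ACOT13 at 0.23 and for TP53I3 APOBEC3C at 0.28. For GDF15 it was MANBA at 0.28, for BAX UQCC at 0.18, for BBC3 GRINA at 0.19 and for RRM2B S100A14 at 0.05. RRM2B, with small changes in every assay, had the closest neighbour, and ALDH3A1 and HSPB7 were further from CDKN1A than the closest gene was from any other member.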

How the data were processed

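PARS-seq, RNA-seq and Ribo-seq were measured in 14 samples, grouped by their labels. Per the labels, the authors trimmed reads with cutadapt and aligned with Bowtie2 (hg19). They deposited RPKM per gene, counted with coverageBed without a strand option, so that antisense reads cannot be told apart, and the number of read starts at each base of a transcript. No column was left unmapped.

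The test on log2(RPKM + 1) was limma 3.58.1 under R 4.3.3, allowing the variance to follow the mean level. Genes had to average 1 RPKM or more and were called at a Benjamini-Hochberg adjusted p under 0.05 over all genes tested. The fold changes understate those of low genes. RNA-seq has 1 library per condition and was compared at 1.5-fold. Read starts per transcript were scaled to the library total with 0.5 added, for transcripts listed in all libraries of the comparison with at least 10 in 2 libraries. S1 control replicate 1 lists only 4722 transcripts. RPKM of RNA-seq and Ribo-seq gave whole reads for 100.0% of 15813 genes (tolerance 0.001 reads), with 983148, 3277633, 1387312 and 2373050 reads in Ribo-seq (control 1, control 2, KD 1, KD 2) and 39798151 and 29513448 in RNA-seq. The fits were tested on simulated data. The members and lists were chosen with earlier results of these data known. Named genes were the members, ADAR, up to 5 called genes per list with the same direction in all assays and the nearest genes by ratio. Other called list genes, CD68, CASP8 and CASP10 were named after their values were seen. The alternatives covered pseudocounts, filters, scaling, the replicate block and leaving out each replicate. The values of 1 gene of the regulator list are not reported here.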

Additional observations from a re-analysis of the deposited data

How the results depend on the processing

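CDKN1A, MDM2 and SESN1 were called lower in PARS-seq under all 13 settings, FAS in 12 and TP53I3 in 11. The number of members called, 5, was 3 with no filter on low values, where FAS and TP53I3 were lost (limma, adjusted p = 0.0663 and 0.0741). It was 8 with the replicate block, which added BAX, BBC3 and GDF15. Leaving out 1 library gave 5 to 7 members. Over all genes, 1728 calls became 546 with no filter, 1118 at a mean of at least 5 RPKM and 5656 with the replicate block, and 1154 to 2571 with 1 library left out. In Ribo-seq the block called 143 genes in place of 0 and 1 member, CDKN1A (adjusted p = 0.00215), and in the difference between both assays 1 gene, no member. Same-numbered replicates deviated together (r = 0.658 over genes in PARS-seq, 0.811 in Ribo-seq, 0.467 in S1 and 0.388 in V1), but with 2 pairs and no label that ties them, the samples share only a number. The block changed no call of a member's transcript in the read starts. With S1, leaving out 1 library gave 1 to 2 of the 2 transcripts and 239 to 1833 calls in all, against 948, and with V1 1 to 2 of the 2 and 567 to 1585 calls, against 1680. The number of members past 1.5-fold in translation efficiency, 2, was 0 with a pseudocount of 5 and 0 at a mean of at least 5 RPKM, where SESN1 and FAS were not kept or had smaller ratios. No called value changed sign, but 9 values that were not called did, in 12 combinations of value and setting. In Ribo-seq the differences of GDF15 (−1.28 to 0.51), TP53I3 (−0.89 to 0.38), SESN1 (−0.40 to 0.31), BBC3 (−0.60 to 0.14), FAS (−0.21 to 0.44), MDM2 (−0.05 to 0.34) and RRM2B (−0.06 to 0.68) took both signs, as did RRM2B in PARS-seq (−0.31 to 0.04), each when 1 library was left out, and the translation efficiency ratio of CDKN1A was 0.03 and, centred on the median, −0.05. Whole reads from RPKM and the values by Ribo-seq replicate were chosen after seeing the data. Fits with 1 library left out, 4 of the 13 settings in PARS-seq, have 1 library in a group. Their spread comes largely from other genes, which limits what their counts of calls show. For the changes in fits the cause was not tested. BBC3, SESN1, FAS and RRM2B had 9 to 55 reads per Ribo-seq library, which limits their ratios.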
